A study of Mus musculus with 4 samples.

Results

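The genes described here are the 10 genes of the mouse MHC class II system that the count table holds under the symbols H2-Aa, H2-Ab1, H2-Eb1, Cd74, H2-DMa, H2-DMb1, H2-DMb2, H2-Oa, H2-Ob and Ciita. They were chosen by name, and each matched 1 of the 46078 gene rows. Messenger RNA was sequenced in 4 libraries of sorted mouse dendritic cells (DCs). The 2 Ctrl libraries came from CD11c-cre mice, and the 2 Il33flx libraries came from CD11c-cre-Il33flx/flx mice, in which the Cre recombinase can remove loxP-flanked Il33. The CD11c promoter that drives Cre is active in DCs and in some other myeloid cells, so the deletion is not limited to the sorted subset. In both groups the mice had received EL4-Flt3 tumour cells 10 days earlier, EL4 being a mouse T lymphoma line. Cells from the spleen and the mesenteric lymph node were sorted together as CD45+, CD64-, CD11b+, MHCII+ and CD103+. Age, sex and strain were not given, nor whether a library came from 1 animal or several. The replicate spread behind each p-value may therefore be technical in part. The gate selected cells by class II surface protein, whose chains some of these genes (H2-Aa, H2-Ab1 and H2-Eb1) encode. Cells low in class II were removed from both groups.

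MHC class II molecules are pairs of an alpha and a beta chain that show peptides from endocytosed proteins to CD4 T cells, and DCs are among the cells that carry most of them. New pairs bind the invariant chain, encoded by Cd74, which guides them to endosomes. There DM removes the last invariant chain fragment and edits the bound peptides, while DO restrains DM. Ciita encodes the class II transactivator, a protein that does not bind DNA itself but sits on factors (the RFX complex, CREB and NF-Y) bound to the X and Y boxes in front of each class II gene.

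The sequences below show where core letters of these boxes were matched in front of some of the members. RefSeq promoter windows of build GRCm38.p6, running from 250 bases before the start of transcription to 50 after it, matched 7 of the 10 members. The search took CCAAT, the core of the Y box, on both strands, and TGACG or TGATG, forms of the X2 box core, on both strands. CCAAT can share its last base with an X2 core. In 5 members the window held an X2 core followed within 60 bases by ATTGG, the Y box core as read on the other strand, against 2.04% of all 32851 windows. Either order or strand of the pair was present in 6 of the 8 member windows against 11.6% of all windows. CCAAT was present in 7 of the 8 against 37.4%, and an X2 core in 6 of the 8 against 53.1%. The ordered form was taken from the members' own windows, so its count against 2.04% is a description and not a test. Each stretch reads 5′ to 3′ on the strand of its gene. Capitals mark ATTGG and the X2 cores that precede it on that strand, and X2 cores on the other strand are not marked.
H2-Aa (chr17:34287857-34287922, minus strand): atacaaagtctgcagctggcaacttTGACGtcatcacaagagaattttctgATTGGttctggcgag
H2-Eb1 (chr17:34305756-34305822, plus strand): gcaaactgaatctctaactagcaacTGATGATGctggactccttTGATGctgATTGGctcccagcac
H2-DMb1 (chr17:34153077-34153144, plus strand): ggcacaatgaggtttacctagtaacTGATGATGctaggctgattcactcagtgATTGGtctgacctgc
H2-DMb2 (chr17:34145109-34145173, plus strand): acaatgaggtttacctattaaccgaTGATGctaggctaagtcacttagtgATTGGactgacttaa
H2-Ob (chr17:34238801-34238862, plus strand): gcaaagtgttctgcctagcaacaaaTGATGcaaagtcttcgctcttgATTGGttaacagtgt
H2-Oa (chr17:34092291-34092350, plus strand): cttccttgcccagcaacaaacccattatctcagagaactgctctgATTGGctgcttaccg

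The marked X2 core began 26 bases before ATTGG in H2-Aa, 25 in H2-DMb2 and 22 in H2-Ob. H2-DMb1 had overlapping X2 cores at 28 and 25 bases and H2-Eb1 at 27 and 24, with a further one at 8. ATTGG itself began 43 to 90 bases before the start in these 6 genes. H2-Oa had ATTGG with no X2 core in the stretch, and neither window of H2-DMa held the ordered pair. These matches describe letters in a window and not bound sites.

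Library totals ran from 67707682 to 81217828 gene counts, and the lowest count of a member was 12440 (H2-Oa in Ctrl 2), so counting error was at most 0.897% of a value and the spread between libraries set the precision. Of the genes of the gate, Ptprc (CD45) had 563 to 1012 CPM (counts scaled to a common library total), Itgam (CD11b) 97.8 to 128 and Itgae (CD103) 56.8 to 116, while Fcgr1 (CD64), which the gate excluded, had 3.66 to 5.50. Itgax (CD11c), the gene whose promoter drives Cre, had 647 and 517 CPM in Ctrl and 359 and 407 in Il33flx, without overlap. By edgeR it differed by -0.60 ± 0.19 (SE, log2) and was not called (adjusted p = 0.995, and 0.018 before adjustment). Il33 had 0 to 8 counts per library and cannot check the genotype at this depth. Ctrl 1 stood apart from the other libraries, at -47.0 on the first principal component (61.3% of the variance) against 12.8 to 17.1. The log2 fold change of each member without Ctrl 1 is given beside the value from all libraries.

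Together the 10 members took 10.3% and 8.61% of the gene counts in Ctrl 1 and 2, and 8.71% and 9.80% in Il33flx 1 and 2. H2-Aa, H2-Ab1, H2-Eb1 and Cd74 alone accounted for 8.21% to 9.85%, and the other 6 for 0.392% to 0.434%. The share was high in 1 library of each genotype and low in the other, so the groups overlapped.

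No class II gene passed the test for a difference between the genotypes, given the spread between libraries. By edgeR's quasi-likelihood test, 0 of the 10 members were called at an adjusted p below 0.05, where 0.00667% of the 14995 genes tested were called (1 gene, not a member). At an unadjusted p below 0.05 stood 0 of 10 members against 3.26% of all genes, and DESeq2 and limma-voom also called 0 members. All 10 passed the filter on low counts. The median log2 fold change of Il33flx over Ctrl was -0.09 over the members and 0.01 over all genes tested. It was -0.12 over the 937 genes at least as abundant as the lowest member, below the median of the members. Of the members 6 were negative and 4 positive, where 51.8% of all genes were positive. Both Il33flx libraries lay above both Ctrl libraries for 2 members, H2-DMb2 and H2-Ob, where 15.4% of all genes did so. For 0 of 10 members did both lie below, where 14.9% of all genes did. In bulk libraries such as these, a change in the number of cells of a type and a change in RNA per cell cannot be told apart.

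**Figure D1:**
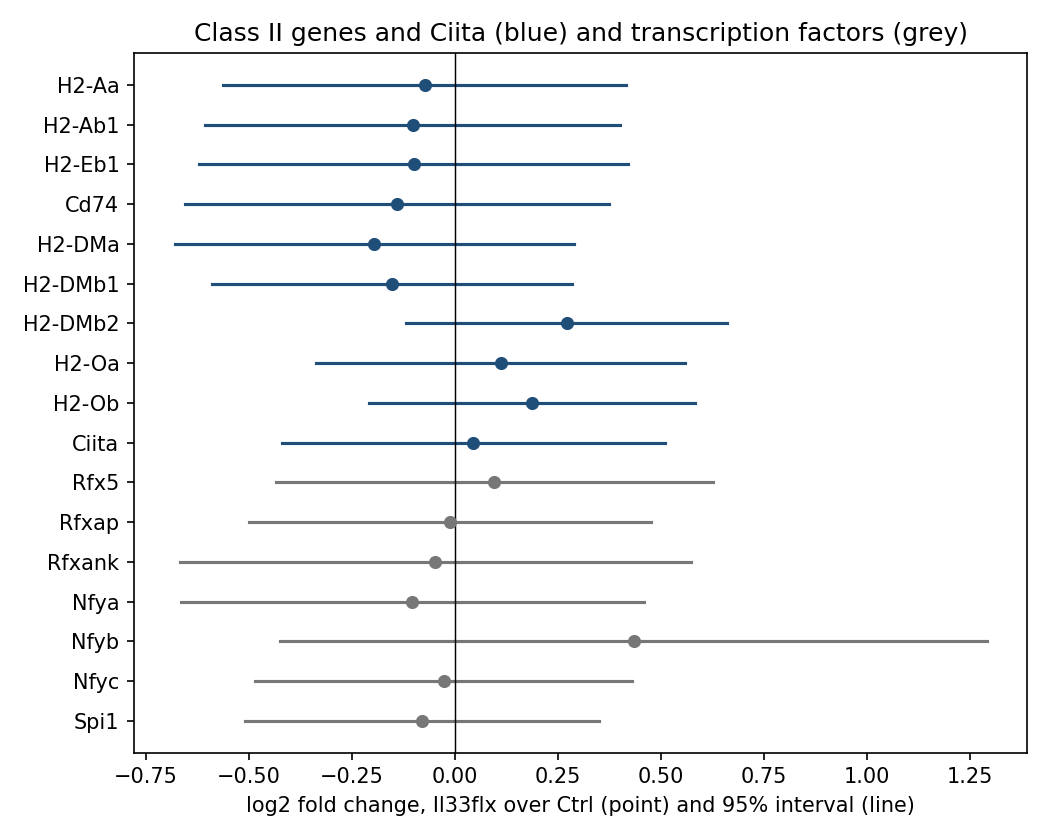
Log2 fold change of Il33flx over Ctrl (points, horizontal axis) with its 95% interval from edgeR (lines) for the 10 class II genes in blue and 7 transcription factors in grey. Every interval crosses 0; those of the class II genes run from -0.68 at the lowest to 0.66 at the highest.

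The classical chain genes encode chains of the surface molecules I-A and I-E. H2-Ea-ps, the locus of the I-E alpha chain, had only 1 to 11 counts per library, so H2-Eb1 RNA does not show surface I-E. H2-Ab1, the beta chain gene of the I-A molecule (ENSMUSG00000073421, chromosome 17, 34257689 to 34269419, plus strand, GRCm38), had 42775 and 34609 CPM in Ctrl 1 and 2, and 33060 and 39032 CPM in Il33flx 1 and 2. Its alpha chain partner H2-Aa (ENSMUSG00000036594, chromosome 17, 34282744 to 34287823, minus strand) read 11710, 9455, 9217 and 10905 CPM in the same order. H2-Eb1, the beta chain gene of I-E (ENSMUSG00000060586, chromosome 17, 34305867 to 34316674, plus strand), read 9668, 7292, 7217 and 8609 CPM. Each gene was highest in Ctrl 1, second in Il33flx 2 and lowest in Il33flx 1, so the highest and the third value were both Ctrl. The log2 fold changes were -0.10 ± 0.21 (SE) for H2-Ab1, -0.07 ± 0.20 for H2-Aa and -0.10 ± 0.22 for H2-Eb1 (adjusted p = 0.995 for each, edgeR). The 95% interval for H2-Ab1 covered 0.657-fold to 1.32-fold. Without Ctrl 1 the sign turned, to 0.07 for H2-Ab1, 0.10 for H2-Aa and 0.13 for H2-Eb1, and it also turned without Il33flx 1 (0.01 to 0.04). Without Ctrl 2 the values moved the other way, to -0.25, -0.23 and -0.29 in the same order.

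Cd74 (ENSMUSG00000024610, chromosome 18, 60803848 to 60812652, plus strand), whose invariant chain both chaperones class II and, on the surface, is a receptor for the cytokine MIF, had 40057 and 30656 CPM in the Ctrl libraries and 30110 and 34043 CPM in the Il33flx libraries. Ctrl 1 was again the highest library and the remaining Ctrl library lay between those of Il33flx. Its log2 fold change was -0.14 ± 0.21 (SE, adjusted p = 0.995, edgeR). It was 0.07 without Ctrl 1 and -0.33 without Ctrl 2.

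The DM genes encode the peptide editor, with a single alpha chain gene and a pair of beta chain genes in the mouse. H2-DMa (ENSMUSG00000037649, chromosome 17, 34119541 to 34139101, plus strand) had 1453 and 1095 CPM in the Ctrl libraries and 1063 and 1162 CPM in the Il33flx libraries. H2-DMb1 (ENSMUSG00000079547, chromosome 17, 34153072 to 34160230, plus strand) read 1440, 1361, 1141 and 1381 CPM. Both followed the order of the classical chains, with overlapping groups. The log2 fold changes were -0.20 ± 0.20 (SE) for H2-DMa and -0.15 ± 0.18 for H2-DMb1 (adjusted p = 0.995 for each, edgeR). Without Ctrl 1 that of H2-DMa was 0.03 (-0.39 without Ctrl 2), while that of H2-DMb1 stayed negative, at -0.10.

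H2-DMb2, the other DM beta chain gene (ENSMUSG00000037548, chromosome 17, 34143307 to 34151555, plus strand), departed from that order. Its Ctrl libraries had 315 and 326 CPM, and its Il33flx libraries 390 and 385 CPM. The groups did not overlap, and within each the libraries lay close together. The log2 fold change was 0.27 ± 0.16 (SE, 95% interval -0.12 to 0.66), the largest in size of the 10 under the edgeR test of all libraries, and it was not called (unadjusted p = 0.14, adjusted p = 0.995, edgeR). It remained between 0.25 and 0.35 in all 11 alternative fits, and was 0.26 without Ctrl 1. With groups that lie apart, leaving out 1 library could hardly turn the sign. Reads of the beta chain genes cannot be fully separated. Of the 50-base words in the annotated transcripts, 25.9% of those of H2-DMb2 and 22.7% of those of H2-DMb1 also occur in another gene, each mostly in the other of the pair. At 75 bases the shares were 16.2% and 15.8%. The count table holds 21.9% to 23.1% of all reads outside the gene rows as not uniquely aligned, so reads of the shared stretches may be missing from both genes and both levels are uncertain.

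The DO genes encode the brake on DM, best known from B cells and also made by some DCs. H2-Oa (ENSMUSG00000024334, chromosome 17, 34092340 to 34095234, plus strand) had 206 and 165 CPM in the Ctrl libraries and 195 and 206 CPM in the Il33flx libraries. H2-Ob (ENSMUSG00000041538, chromosome 17, 34238903 to 34254414, plus strand) read 261, 261, 285 and 310 CPM. H2-Oa overlapped between the groups, and H2-Ob did not, its Ctrl libraries being nearly equal. The log2 fold changes were 0.11 ± 0.19 (SE) for H2-Oa and 0.19 ± 0.16 for H2-Ob (adjusted p = 0.995 for each, edgeR). That of H2-Ob kept its sign in all 11 alternative fits (0.16 to 0.26) and was 0.20 without Ctrl 1. As its groups lie apart, leaving out 1 library could hardly turn that sign. That of H2-Oa was 0.29 without Ctrl 1 and turned to -0.04 without Ctrl 2.

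B cells, which express all of these class II genes, had marker RNA that moved with the groups without a call. Of 15 B cell markers, 12 had groups that lay apart with Il33flx higher and 0 with Il33flx lower, against 15.4% and 14.9% of all genes. By edgeR 0 were called at the adjusted threshold, and 7 had an unadjusted p below 0.05, against 3.26% of all genes. Cd79a, a signalling chain of the B cell receptor, had 6.33 and 4.65 CPM in the Ctrl libraries and 14.0 and 10.4 CPM in the Il33flx libraries. The summed level of the list was 1058 to 1425 CPM in Ctrl and 1110 to 1264 in Il33flx, most of it Ighm. Without Ighm the other 14 summed to 155 to 182 CPM in Ctrl and 196 to 230 in Il33flx, and none was at 0 in all libraries. Marker sums of neutrophils were 350 to 384 CPM in Ctrl and 462 to 658 in Il33flx (10 genes, 5 apart and higher), and those of erythroid cells 6.43 to 6.75 and 15.1 to 36.5 CPM (9 tested genes, 7 apart and higher). Of the T cell and EL4 markers, 6 of 13 were apart and lower and 1 higher, with sums of 162 to 227 and 138 to 179 CPM. None of these 3 lists had a gene called by edgeR. At an unadjusted p below 0.05 by edgeR stood 4, 6 and 0 of their genes, against 3.26% of all genes. The gate required CD11b, MHC class II and CD103 on each cell. Whether RNA of B cells or the other types has a part in the values of H2-DMb2, H2-Ob and H2-Oa was not tested.

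Ciita (ENSMUSG00000022504, chromosome 16, 10480059 to 10528418, plus strand) had 915 and 705 CPM in the Ctrl libraries and 829 and 843 CPM in the Il33flx libraries. The Il33flx libraries lay close together, between those of Ctrl. The log2 fold change was 0.05 ± 0.19 (SE, 95% interval -0.42 to 0.51, adjusted p = 0.997, edgeR). It was 0.25 without Ctrl 1 and -0.14 without Ctrl 2. Ciita has several promoters, of which DCs and B cells use different ones, and counts over the whole gene do not show which was active.

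**Figure D2:**
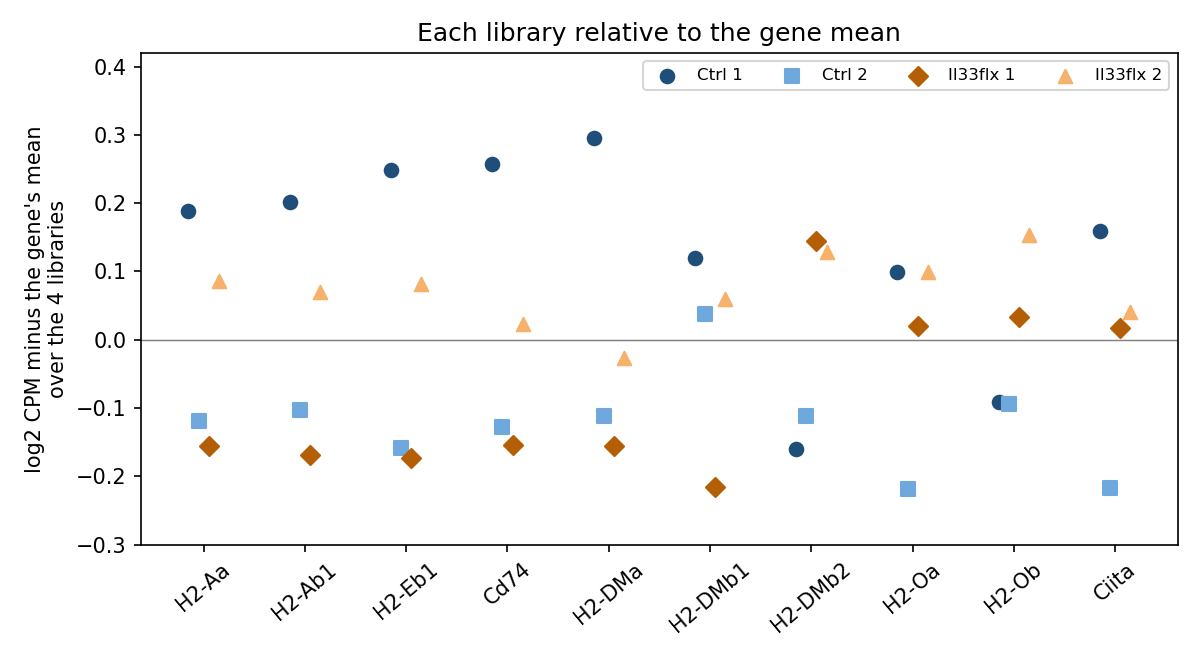
Log2 CPM of each library minus the mean of the gene over the 4 libraries (vertical axis) for the 10 genes. From H2-Aa to H2-DMb1 the Ctrl 1 circle is highest and the Il33flx 1 diamond lowest, while for H2-DMb2 and H2-Ob both Il33flx libraries lie above both Ctrl libraries.

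The members fell into a large set with 1 order of libraries and a few that departed from it, as the plot of values relative to the gene mean shows. In 6 of the 10, the classical chains, Cd74, H2-DMa and H2-DMb1, the order was Ctrl 1, Il33flx 2, Ctrl 2 and Il33flx 1. The other 4 each had an order of their own. In H2-Oa the highest place was a tie within counting error, at 206.22 CPM in Il33flx 2 and 206.15 in Ctrl 1. Ctrl 1 exceeded Ctrl 2 by 0.31 to 0.41 (log2) in H2-Aa, H2-Ab1, H2-Eb1, Cd74, H2-DMa, H2-Oa and Ciita, but by 0.08 in H2-DMb1, by 0.003 in H2-Ob, and the difference was -0.05 in H2-DMb2. From the lowest to the highest library a member moved by 0.25 (H2-Ob) to 0.45 (H2-DMa). Some genes outside the system had much the same profile. Among the nearest to the mean of the members, of 3782 other protein-coding genes of at least 50 CPM, were Akr7a5 (an aldo-keto reductase), Cux1 (a homeobox factor), Gpx1 (glutathione peroxidase) and Rps6 (a ribosomal protein). Their root mean square distance was 0.0083 to 0.014 log2 units over 4 libraries, and that of the members 0.05 to 0.19. The named genes were picked as the nearest of 3782 and the members were not, so these ranges cannot be compared.

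DCs are known to lower Ciita and class II transcription as they mature. Of 12 mature DC markers 11 had a negative log2 fold change in Il33flx, and their summed level was 3934 CPM in Ctrl 1 against 2455 in Ctrl 2, 2536 in Il33flx 1 and 2680 in Il33flx 2. Ccr7, the receptor that leads mature DCs to lymph nodes, read 999, 489, 475 and 415 CPM in the same order. Ctrl 1 was the highest library for the sum of the mature DC markers and for 7 of the class II members. Whether these are linked was not tested. Of the list 0 were called, 1 lay lower without overlap and 0 higher, against 14.9% and 15.4% of all genes, of which 51.8% were positive. Type 1 and type 2 DC markers summed to 8067 to 9256 and 589 to 672 CPM in Ctrl, and to 7102 to 7612 and 625 to 685 CPM in Il33flx. Most of the type 1 sum was Irf8 and Wdfy4, with means of 3982 and 2307 CPM over the libraries. Of the 8 type 1 markers 0 were called, 6 were negative and 2 positive (Xcr1 at 0.25 and Clec9a at 0.11), and 3 lay lower without overlap and 0 higher. Plasmacytoid DC markers summed to 294 to 309 and 241 to 376 CPM, and those of macrophages and monocytes to 1532 to 1674 and 1566 to 1697 CPM. The part of any of these cells in the class II values was not tested.

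**Figure D3:**
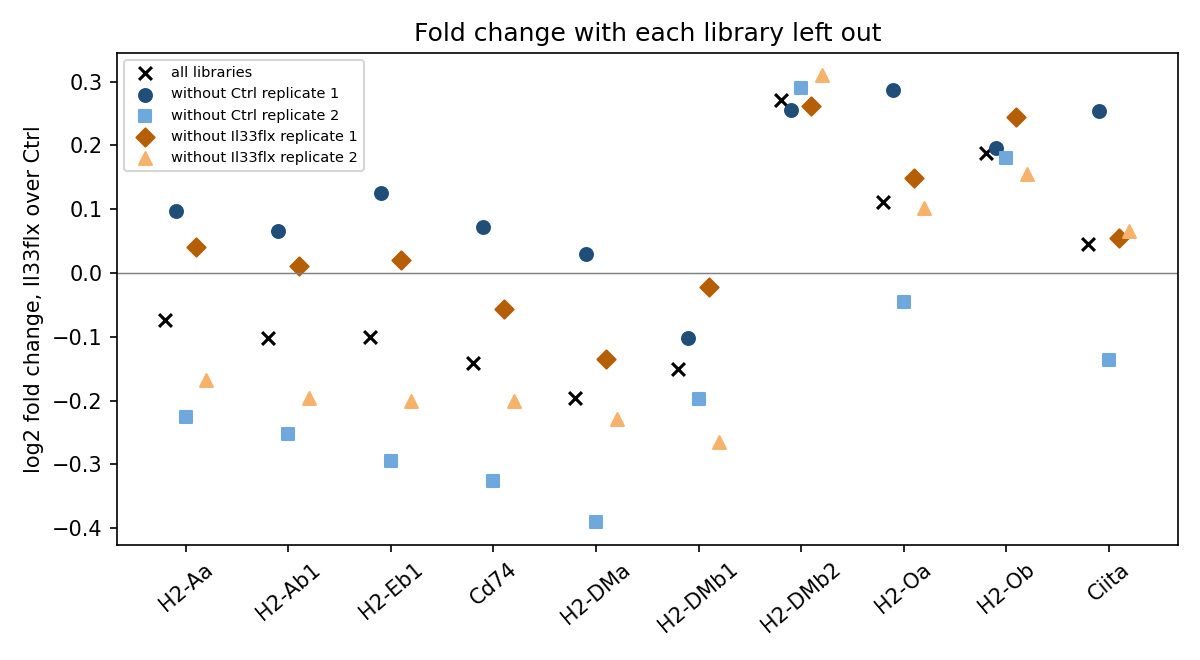
Log2 fold change of Il33flx over Ctrl (vertical axis) with all 4 libraries (crosses) and with each library left out. H2-DMb1 stays below 0 and H2-DMb2 and H2-Ob above it in these fits, and the other 7 genes change sign. The groups of H2-DMb2 and H2-Ob do not overlap, so a library left out could hardly turn their sign.

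Levels can be compared between genes only per length, here as CPM divided by the length of all annotated exons in kilobases (RPKM). On that scale Cd74 was highest, with a mean of 20081 RPKM over the 4 libraries, followed by H2-Ab1 at 14552, H2-Eb1 at 4216 and H2-Aa at 2718. H2-DMb1 (792), H2-DMa (346), H2-DMb2 (203), H2-Oa (137), Ciita (86.3) and H2-Ob (51.9) followed. Neighbours in this order did not overlap over the 4 libraries. The annotated lengths move these levels: H2-Aa spans 3798 exonic bases over all annotated transcripts, whereas its principal coding transcript has 1128. With the principal transcript length H2-Ab1 led at 30832 RPKM, then came Cd74 at 23912 and H2-Aa at 9151, above H2-Eb1 at 4911, and Ciita (137) still lay below H2-Oa (178) and above H2-Ob (105). On that scale the ranges over libraries overlapped for H2-Ab1 and Cd74, for H2-DMb1 and H2-DMa and, barely, for H2-Oa and Ciita. Within each library H2-Ab1 still exceeded Cd74, and H2-DMb1 exceeded H2-DMa. Under both lengths the classical chains and Cd74 stood above the DM genes, and DM above DO.

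**Figure D4:**
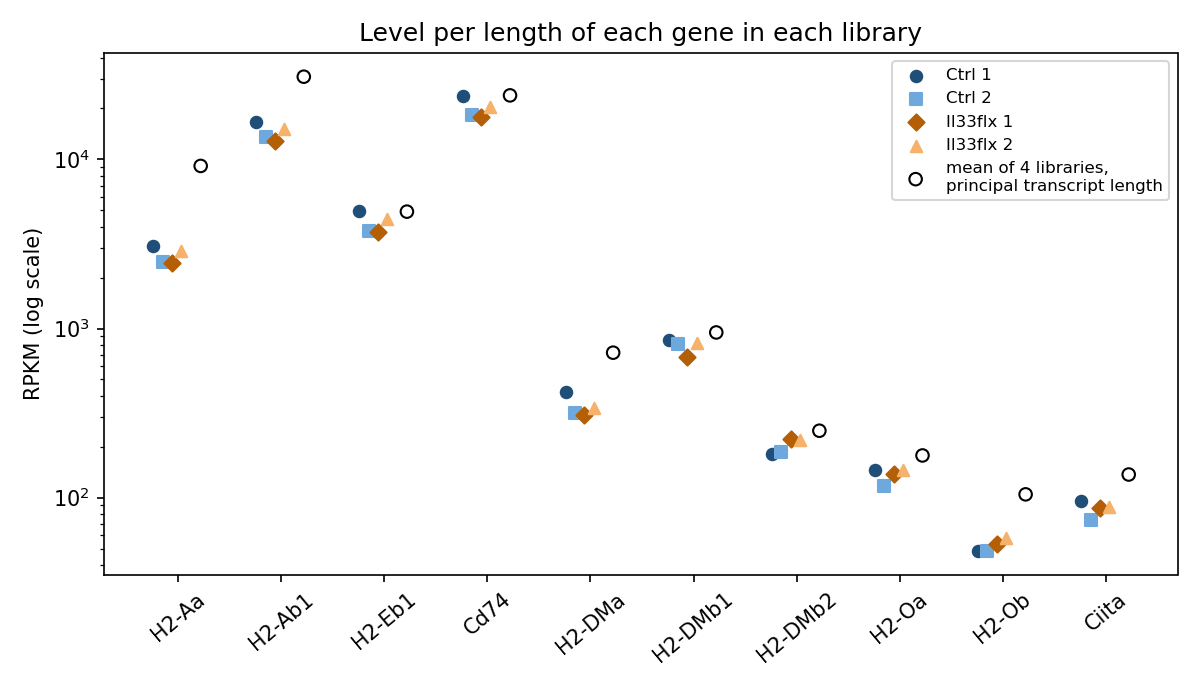
RPKM on a log axis for each gene, 1 filled point per library with exon union lengths, and an open circle for the mean of the 4 libraries with the principal transcript length. The 4 genes on the left lie at 2427 RPKM or more and the DM, DO and Ciita genes at 857 or less with exon union lengths, and H2-Aa moves most between the lengths.

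Ratios within a library do not depend on the scaling between libraries. H2-Aa to H2-Ab1 was the most even, at 0.185, 0.185, 0.189 and 0.189 in Ctrl 1, Ctrl 2, Il33flx 1 and Il33flx 2, and Cd74 to the sum of the 3 classical chains was 0.965, 0.926, 0.943 and 0.901. The alpha and beta chain genes of I-A thus kept a nearly fixed proportion while both varied. H2-DMb2 to H2-DMb1 was 0.211, 0.231, 0.329 and 0.268, a log2 difference of 0.43 between the groups, which did not overlap. DM (its 3 genes summed) to DO (its pair summed) was 7.48, 7.91, 6.31 and 6.76, lower in both Il33flx libraries by 0.24 on the log2 scale. With the principal transcript length it was 7.39, 7.45, 6.04 and 6.40. With 2 libraries against 2, an exact two-sided permutation test of a ratio cannot give a p below 0.33, so these differences were not tested. Ciita to the 3 classical chains was 0.00388, 0.00375, 0.00457 and 0.00393, so that Il33flx 1 was the high library and Il33flx 2 was close to Ctrl 1. The groups did not overlap for this ratio or for H2-Aa to H2-Ab1 either, with Il33flx higher in both, and this was not tested.

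**Figure D5:**
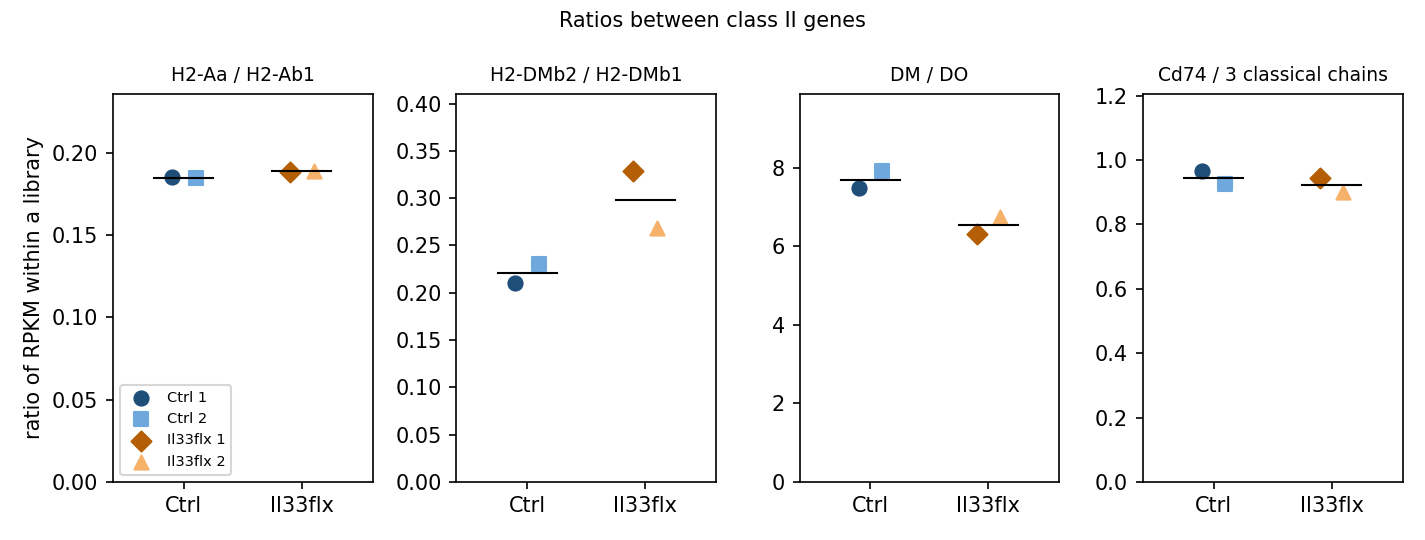
RPKM ratios within each library (vertical axes from 0, exon union lengths), points for libraries and lines for group means. H2-Aa to H2-Ab1 is nearly constant, H2-DMb2 to H2-DMb1 is higher in Il33flx and DM to DO lower, and Cd74 to the classical chains overlaps.

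The factors that bind class II promoters or regulate Ciita, Prdm1 as a repressor among them, gave no call either (0 of 14 by edgeR, 4 positive, 10 negative, median log2 fold change -0.04). The RFX subunit genes Rfx5, Rfxap and Rfxank, which recognise the X box, had log2 fold changes of 0.10, -0.01 and -0.05, and the NF-Y subunit genes Nfya, Nfyb and Nfyc, which recognise CCAAT, -0.10, 0.43 and -0.03. For Nfyb, Ctrl 1 was the low library, at 11.2 CPM against 21.9 to 24.9 CPM in the other 3. Spi1, which encodes the myeloid factor PU.1, was at -0.08. Without overlap Irf4 lay higher in Il33flx and Irf8, Usf1 and Prdm1 lower, 1 and 3 of 14 against 15.4% and 14.9% of all genes. Irf8, on which type 1 DCs depend, had 4817 and 3946 CPM in Ctrl, above the 3346 and 3819 CPM of Il33flx, and edgeR gave -0.29 ± 0.19 (SE) with an adjusted p of 0.995. Irf4, a type 2 DC factor, read 14.6 and 21.01 against 25.3 and 22.7 CPM (0.43 ± 0.25 SE), and Prdm1, whose product Blimp-1 silences Ciita in plasma cells, 8.79 and 6.70 against 6.33 and 4.22 CPM (-0.55 ± 0.32 SE, adjusted p = 0.995 for both, edgeR).

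Genes that supply peptides to class II were not called (0 of 9, 4 positive and 5 negative, median -0.01, 0 higher and 1 lower without overlap). Over all genes 15.4% lay higher and 14.9% lower without overlap. Ctss, the cathepsin that trims the invariant chain in DCs, had 590 and 887 CPM in the Ctrl libraries and 843 and 895 CPM in the Il33flx libraries. Ctrl 1 was thus its lowest library, unlike for Cd74. Cst3, which encodes the cathepsin inhibitor cystatin C, read 12255, 9782, 9356 and 9386 CPM, with a log2 fold change of -0.23 ± 0.19 (SE, adjusted p = 0.995, edgeR). The asparagine endopeptidase gene Lgmn was at -0.27 and the cathepsin B gene Ctsb at -0.23. Genes that govern class II on the surface were not called either (0 of 4, median 0.02, 0 higher and 1 lower without overlap). March1, the ubiquitin ligase gene that marks class II for removal, had 124 and 132 CPM in Ctrl and 123 and 111 in Il33flx. Cd83, which opposes that ligase, had 1266 and 1126 against 1084 and 1345 CPM. Sppl2a, the protease gene for the last stub of the invariant chain, read 54.2 CPM in Ctrl 1 against 107 to 166 in the others.

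Most of the class II genes are neighbours. Between the start of H2-Oa and the end of H2-Ea-ps on chromosome 17, 34092340 to 34344645, 15 genes were tested, 8 of them members. The 7 others (Brd2, Psmb9, Tap1, Psmb8, Tap2, Gm20513 and H2-Eb2) all had negative log2 fold changes, with a median of -0.21, and 0 were called. Of these 7, 2 lay lower without overlap, against 14.9% of all genes. Over all genes 51.8% were positive, and the 937 of at least the abundance of the lowest member had a median of -0.12. Of the 9 MHC class I genes in the list, which include the peptide transporter genes Tap1 and Tap2, 0 were called, 8 were negative and the median was -0.15. H2-D1, a class I heavy chain gene, read 11070 and 8295 CPM in Ctrl and 8364 and 8233 in Il33flx. H2-Eb2, a further beta chain gene, read 18.0 and 11.5 CPM in Ctrl and 12.7 and 12.0 in Il33flx. H2-Ea-ps, the locus of the I-E alpha chain, which is a pseudogene in some strains, counted 8 and 11 reads for Ctrl against 1 and 2 for Il33flx and did not pass the filter. Il33flx over Ctrl came to 0.179 of the level (exact 95% interval 0.034 to 0.609, for counting error only).

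Overlapping genes limit a few of the members, since no strand setting was given. The exons of H2-DMa overlap those of Brd2 on the opposite strand, which had 17318 to 23236 counts of its own, and 8.43% of the 50-base words of H2-DMa are shared with another gene. H2-Oa shares 15.5%, mostly with the antisense gene BC051537, and Ciita 1.46%, mostly with Dexi. H2-Ab1, H2-Eb1, Cd74 and H2-Ob share none. In the authors' deposited table all 10 members are listed, with log2 fold changes from -0.22 (H2-DMa) to 0.25 (H2-DMb2) and an adjusted p of 0.999997 for each.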

How the data were processed

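The deposited counts are whole-number reads per gene that the authors did not normalize. The tools named in the submitters' processing notes are STAR, HTSeq, DESeq2 and Trimmomatic 0.39, and the build is GRCm38. Annotation release, strand setting and read length are not given in the sources used here. Between 69.9% and 72.2% of all counted reads lay in genes, and the HTSeq summary rows were left out of totals and tests. The authors' deposited table of their DESeq2 comparison holds a signal (counts divided by 1 size factor per library, checked against the counts), a log2 fold change with its error, a Wald score and p-values.

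Here, Il33flx was compared with Ctrl over all genes with edgeR 4.0.16 (filterByExpr, TMM, quasi-likelihood F test) in R 4.3.3, and p-values were adjusted over all 14995 genes by the Benjamini-Hochberg method. A gene was called below 0.05. SE is the log2 fold change over the square root of F, and intervals are 95%. CPM values use TMM-scaled totals, and principal components log2(CPM + 0.5). Names, exons and transcripts come from GENCODE M21, which named 45229 rows. Alternatives were DESeq2 1.42.0, limma-voom 3.58.1, other scalings and filters, the replicate number as a block, each library left out, and other gene lengths, of which the principal transcript length was chosen after seeing the data. The procedure was tested on simulated data.

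Members, gene lists and rules were chosen with earlier results of these data known. All members were named. From each other list the text could name up to 4 genes of at least 1 CPM with the smallest p, and the factors Rfx5, Rfxap, Rfxank, Nfya, Nfyb, Nfyc and Spi1. Usf1, Ighm, Xcr1, Clec9a, the genes of the gate, the list sums, the neighbours on chromosome 17 and the overlapping genes were singled out after their values were seen. The order and strand of the promoter pair were taken from the members' own windows. The text also names genes whose profile over the libraries was nearest to the mean of the members. Some genes that these rules took are not reported here.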

Additional observations from a re-analysis of the deposited data

How the results depend on the processing

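None of the 10 class II genes was called in any of the 11 alternative fits, 110 results in all, and the lowest adjusted p was 0.206, for H2-DMa without Ctrl 2. H2-DMb1, H2-DMb2 and H2-Ob kept their sign in all 11, and the other 7 turned it in at least 1, always with a library left out. H2-Aa also turned with library size alone (0.01). The groups of H2-DMb2 and H2-Ob did not overlap, so leaving out a library could hardly turn their sign. The median of the members was 0.11 without Ctrl 1 and -0.21 without Ctrl 2. No scaling moved the median of all genes by more than 0.08. The number of genes called over the whole table depended strongly on the choice. It was 1 with edgeR, 53 with DESeq2, 0 with limma-voom (511 at an unadjusted p below 0.05), 0 with library size alone (504), 0 with no filter (591) and 0 to 36 with a library left out. The highest came without Ctrl 1, 29 without Il33flx 1, 1 without Il33flx 2 and the lowest without Ctrl 2 (3252 at an unadjusted p below 0.05, 2 of them members, Cd74 and H2-DMa). A fit without a library leaves 1 in its group, which is then assumed to vary like the other group. With the replicate block 33 genes were called. The numbers did not pair the libraries (correlation of deviations -0.09 between Ctrl 1 and Il33flx 1), so the block rests on a shared number alone. Ratios between different genes moved with the length used: H2-Aa to H2-Ab1 averaged 0.187 with exon unions, 0.104 with the longest transcript and 0.297 with the principal one.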
